A study of Homo sapiens with 4 samples.

Results

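Nitrergic neurons, the nitric oxide (NO) producing neurons of the gut wall, were examined for the subtypes into which their deposited annotation divides them in human enteric ganglioids. A nucleus was a member when the deposited tables gave it the class enteric neuron and a nitrergic identity, which held for 1128 of 6557 enteric neurons and of 14812 annotated nuclei in all. The control files named 5 subtypes (Nitrergic 1 to Nitrergic 5) and the PP121 files named 5 others (Nitrergic A to Nitrergic E). Of these, 8 held at least 50 nuclei and are described, each against the other nitrergic nuclei of the same sample. Nitrergic C held 22 nuclei and Nitrergic E held 41, and these serve only where a leading gene is followed into them.

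The samples were 2 control and 2 PP121 preparations of stage 1 enteric ganglioids, which are clusters of gut neurons and immature cells kept in suspension and derived from H9, an established human embryonic stem cell line and the only line sampled. Enteric neural crest was induced first, crestospheres were formed and the clusters were then kept in medium with GDNF, in both groups. PP121, a small molecule that blocks PDGFR and related receptor kinases, was added at 2 µM from day 15 to day 20, and each replicate pooled ganglioids of a separate differentiation. The sample labels do not say whether control and PP121 samples of the same replicate number shared a differentiation. Nuclei were profiled by droplet single-nucleus RNA sequencing. The deposited annotation dates replicate 1 of each group to day 42 and replicate 2 to day 38, so day and replicate number cannot be told apart.

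In the gut, NO neurons make nitric oxide from arginine through the neuronal synthase NOS1, and the gas raises cyclic GMP in the smooth muscle, which relaxes. Most of them are inhibitory motor neurons and many also use the peptide VIP or ATP, while others are interneurons. Subclasses of enteric neurons are usually told apart by their transmitter genes, by transcription factors and by genes of ion channels, adhesion and axon guidance, and those groups order the account of the subtypes.

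Control replicate 1 held 449 nitrergic nuclei and control replicate 2 held 230, while the PP121 samples held 358 in replicate 1 and 91 in replicate 2. The annotated nuclei of these samples held between 23348045 and 34123759 UMIs, and the nitrergic nuclei of different samples shared at most 1 barcode in any pair of samples. Nitrergic 1 was the largest control subtype, with 211 nuclei (47.0% of nitrergic nuclei, 95% exact interval 42.3 to 51.7) in replicate 1 and 158 (68.7%, 62.3 to 74.6) in replicate 2. Nitrergic 2 held 114 and 13 nuclei (25.4% and 5.65%), Nitrergic 3 held 60 and 20 (13.4% and 8.70%), Nitrergic 4 held 46 and 7 (10.2% and 3.04%) and Nitrergic 5 held 18 and 32 (4.01% and 13.9%). The replicates therefore differed in makeup, with Nitrergic 2 mostly in replicate 1 and Nitrergic 5 more often in replicate 2. In PP121 samples, Nitrergic A held 83 and 23 nuclei (23.2% and 25.3%), Nitrergic B held 127 and 19 (35.5% and 20.9%) and Nitrergic D held 97 and 37 (27.1% and 40.7%). Intervals and floors cover counting error only. Nitrergic E came from replicate 1 alone, with 41 nuclei.

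**Figure D1:**
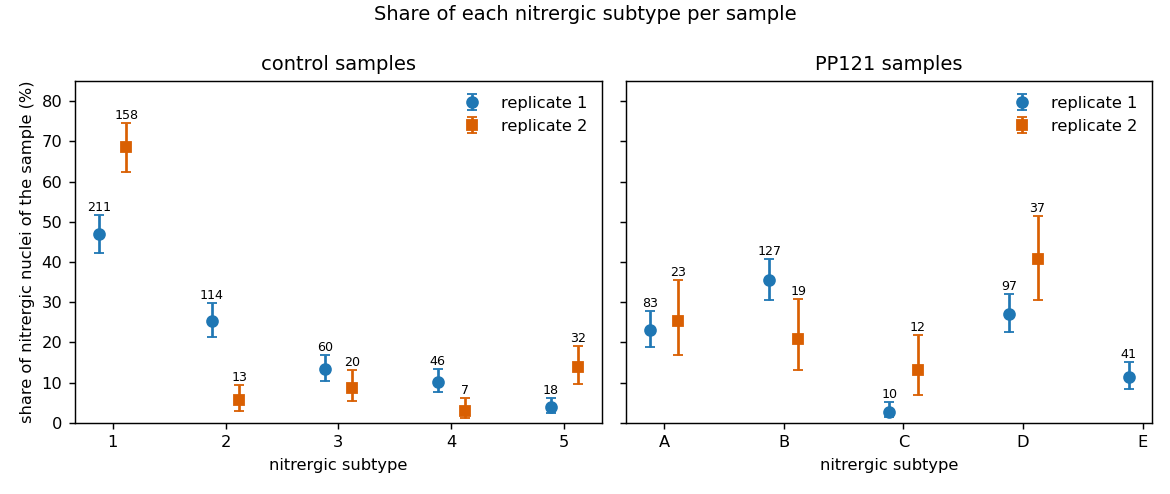
Share of nitrergic nuclei (percent, vertical axis) in each subtype for each sample, with exact 95% intervals as error bars. Nitrergic 2 made up 25.4% of control replicate 1 and 5.65% of control replicate 2, while Nitrergic A made up 23.2% and 25.3% of the PP121 samples.

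The label was checked on its defining gene first. A NOS1 UMI was present in 115 of 1128 nitrergic nuclei (10.2%), in 24 of 5193 nuclei annotated as other enteric neurons (0.462%) and in 11 of 903 mesenchymal nuclei (1.22%), at median depths of 7516.5, 7320 and 7601 UMIs. With every nucleus thinned to 2000 UMIs the shares were 4.26%, 0.0773% and 0.557%. The identity rests on imputed NOS1 together with a score for NO genes, so these shares describe how seldom the call was backed by a UMI and test nothing. NOS1 was unevenly spread over the subtypes. A UMI was found in 28 of 134 nuclei of Nitrergic D (20.9%, 14.4 to 28.8), in 46 of 369 of Nitrergic 1 (12.5%, 9.27 to 16.3) and in 6 of 53 of Nitrergic 4 (11.3%, 4.27 to 23.0). Nitrergic B (9.59%), Nitrergic A (6.60%), Nitrergic 2 (6.30%) and Nitrergic 3 (6.25%) followed, with intervals that overlapped. Nitrergic 5 had a NOS1 UMI in 0 of 50 nuclei, which allows a share of up to 6% by the limit of 3 counts and 7.11% by the exact interval. Its nitrergic label thus had no direct NOS1 read behind it. VIP UMIs were found in 0 of 1128 nitrergic nuclei, which allows a share of up to 0.266%.

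The 3 other genes given as markers of these neurons did not mark all subtypes alike. ONECUT3, a homeodomain factor, stood at 53.1 and 78.8 CPM (UMI counts scaled to an equal total) in Nitrergic 3 in replicates 1 and 2, against 14.6 and 17.4 in the other nitrergic nuclei. PTPRT, a receptor-type tyrosine phosphatase, stood at 554 and 420 CPM in Nitrergic 3 against 178 and 79.8, and at 0 and 11.9 CPM in Nitrergic 5 against 229 and 127. In Nitrergic 5, ONECUT3 stood at 0 and 7.96 CPM against 19.7 and 25.6, and THSD7B was lower too (25.2 and 7.96 CPM against 84.7 and 69.8). Nitrergic 3 was thus high in ONECUT3 and PTPRT, while Nitrergic 5 was low in PTPRT and THSD7B. Its 0 for ONECUT3 and NOS1 in replicate 1 lies under the floor of 3 UMIs there, as do the other nuclei, so for these the difference rests on replicate 2.

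The summed level of 13 mesenchymal markers was 134 to 268 CPM, against 4873 to 5514 in the mesenchymal nuclei of the same samples. The 7 progenitor markers summed to 105 to 455 CPM, against 649 to 934 in Progenitor 1 nuclei and 1914 to 2434 in Progenitor 2 nuclei, and their highest values lay in Nitrergic 4 (455 CPM in replicate 1), Nitrergic 5 (369 and 346) and Nitrergic 1 (337 and 328). The enteric neuron markers summed to 5054 to 13721 CPM in the subtypes, against 530 to 3025 in the classes of nuclei that are not neurons. Nuclei with the highest 6% of doublet scores of their sample made up 10.4% and 10.1% of Nitrergic 1. Whether these values have a part in the gene differences was not tested.

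A gene was counted as higher or lower in a subtype when its CPM, with 5 CPM added, differed at least 2-fold from that of the other nitrergic nuclei in each sample that held at least 10 nuclei of the subtype. Because the authors clustered these nuclei on their genes, such counts are descriptions and carry no p-value, and the percent of genes counted is given beside each. Between 8594 and 9264 genes entered, those with at least 20 CPM in the subtype or in the other nuclei. The requirement in both replicates set the counts: in replicate 1 alone, genes past 2-fold numbered 293 in Nitrergic 1, 485 in Nitrergic 2, 754 in Nitrergic 3, 2326 in Nitrergic 5, 649 in Nitrergic A, 476 in Nitrergic B and 312 in Nitrergic D, and in replicate 2 alone 579, 2425, 1777, 1208, 1818, 1791 and 1185, against 109, 289, 334, 411, 273, 224 and 101 in both.

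Nitrergic 1, the largest control subtype, was set apart by few genes. In each subtype with both replicates, the replicate with fewer nuclei had more genes past 2-fold. Counts are therefore not comparable between subtypes of unlike size. Higher in it were 27 of 8930 genes (0.302%), and 82 (0.918%) were lower. Its leading gene was MECOM, a zinc-finger transcription factor on chromosome 3 (GRCh38, 169083499 to 169663618), at 152 CPM against 12.9 in replicate 1 and 236 against 44.9 in replicate 2, log2 differences of 3.14 and 2.27. GFRA1, the co-receptor through which GDNF reaches RET, stood at 25.4 against 5.15 and 40.9 against 9.63 CPM. Both replicates also had more of PDE3A, a cyclic nucleotide phosphodiesterase that cyclic GMP inhibits (51.3 against 14.9 and 44.6 against 8.02 CPM). STK33, a kinase, stood at 77.2 against 28.3 and 91.4 against 11.2 CPM, and YAP1, a coactivator of the Hippo pathway, at 31.6 against 11.3 and 30.5 against 6.42. RORB, a nuclear receptor, stood at 41.7 against 3.09 and 42.3 against 11.2 CPM, although 47.4% of its UMIs in replicate 2 came from 1 nucleus. Among the lower genes were those of receptors and guidance. The glutamate receptors GRIA1 (262 against 740 and 184 against 651 CPM) and GRM7 (281 against 774 and 342 against 938), the netrin receptors UNC5C and UNC5D and the netrin-like NTNG1 were all lower. With each gene's richest nucleus left out in each sample, 13 of the 27 genes were still higher, and PEX5L and CSKMT were no longer so.

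Nitrergic 2 carried GABA genes. GAD1 and GAD2, the enzymes that make GABA, stood at 131 and 131 CPM in replicate 1 against 37.4 and 51.3, and at 73.8 and 82.0 in replicate 2 against 17.3 and 26.0. Of the 9026 genes, 134 (1.48%) were higher and 155 (1.72%) were lower. A GABAergic identity was annotated for 108 of 114 nuclei in replicate 1 and for 11 of 13 in replicate 2. Leading genes were SPHKAP, an anchor of protein kinase A (227 against 21.4 and 287 against 3.25 CPM), CDH18, a cadherin (2354 against 430 and 3156 against 306), SPTB, a spectrin, and NKAIN2 (1256 against 264 and 1205 against 233). GABRG3, a subunit of GABA-A receptors, stood at 399 against 70.2 and 328 against 35.7 CPM. GABRG3-AS1, within it on the other strand, and CDH18-AS1, within CDH18, were higher too. Since the strand used in counting is not given in the sources used here, the members of such overlapping pairs cannot be separated. Receptor and signalling genes among the higher ones were GRIA1 (1164 against 300 and 1336 against 266), the ephrin receptor EPHA6 and PRKG1, the cyclic GMP-dependent kinase (652 against 169 and 303 against 116). The glutamate receptor gene GRIN3A and PDE3A were lower. Of 21 guidance genes, 1 was higher (EPHA6) and 3 were lower (SLIT3, EPHA5 and EPHA7). Of 22 homeodomain and other neuronal factors past the filter, 2 were higher (ONECUT1 and TFAP2B) and 3 were lower (GBX1, FOXP2 and RORB). Of 8 enteric and autonomic factors, none was higher and 2 were lower (EBF1 and EBF2). The lower genes included CNTNAP5 (38.4 against 283 and 41.0 against 323 CPM), SLC17A6, the vesicular glutamate transporter VGLUT2 (3.29 against 46.7 and 8.20 against 52.5), and MECOM (12.1 against 101 and 16.4 against 186). SLC5A7, the choline transporter, had no UMI in either replicate, which is at least 7.15-fold and 1.54-fold lower than in the other nuclei. Replicate 2 rests on 13 nuclei, and 1 nucleus gave 42.9% of its SPHKAP UMIs.

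Nitrergic 3 had higher peptide and enteric transcription factor genes. Of 9083 genes, 165 (1.82%) were higher and 169 (1.86%) were lower. First among them was MIR137HG, the host transcript of miR-137 on chromosome 1 (97933474 to 98049863), at 457 against 24.4 and 378 against 32.0 CPM, log2 differences of 3.98 and 3.37. RNF220, a ubiquitin ligase (chromosome 1, 44405194 to 44651724), followed at 527 against 41.4 and 447 against 54.5. DGKB, a diacylglycerol kinase, stood at 762 against 44.1 and 331 against 42.7, the netrin receptor UNC5D at 1527 against 206 and 2328 against 201, and DPP10, a subunit of A-type potassium channels, at 3125 against 482 and 3006 against 263. The peptides were lower in level, and most of their values rest on few UMIs. ADCYAP1, which encodes PACAP, stood at 34.6 against 1.22 and 52.5 against 5.06 CPM, TAC1, the substance P precursor, at 23.1 against 2.74 and 68.3 against 4.50, and CARTPT at 125 against 2.13 and 26.3 against 0.562, with all CARTPT UMIs of replicate 2 in 1 nucleus. Of 5 neuropeptide genes that passed the filter, these 3 were higher. They passed the 20 CPM filter only through Nitrergic 3, so they could not have counted as lower. SLC5A7 (67.0 against 11.3 and 152 against 23.0) and SLC17A6 (78.5 against 30.4 and 163 against 37.7) were higher, whereas GAD1 (9.24 against 67.0 and 0 against 23.0) and GAD2 (16.2 against 77.9 and 0 against 32.6) were lower. Of 9 enteric and autonomic transcription factors past the filter, 4 were higher, PHOX2A, EBF2 and MEIS1 among them, and none was lower. EBF2 stood at 57.7 against 3.96 and 105 against 23.6 CPM and likewise passed the filter only through Nitrergic 3. The soluble guanylate cyclase subunit GUCY1A1, part of the receptor for NO, stood at 27.7 against 6.39 and 57.8 against 11.2. The lower genes included NRXN3, a presynaptic adhesion protein (695 against 4237 and 378 against 2248 CPM), as well as PAX2, PAX8 and LHX1.

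Nitrergic 4 had GALNTL6 and PAX8-AS1 as its first leading genes, with PAX8 and PAX2 among the next. It is described from control replicate 1 alone, since replicate 2 held 7 nuclei, so its counts have no replicate check: 234 of 9256 genes (2.53%) were higher and 312 (3.37%) were lower. PAX2 stood at 663 CPM against 121, and the 7 nuclei of replicate 2 had 784 against 79.6. PAX8 stood at 430 against 67.0 and, in those 7 nuclei, at 450 against 25.1. PAX8-AS1 (1155 against 159) lies at 113211522 to 113276581 on chromosome 2 and overlaps PAX8 (113215997 to 113278950) on the other strand. PSD4 (407 against 71.9), a higher gene too, ends just before both at 113209396, and reads of PAX8 and PAX8-AS1 cannot be separated. GALNTL6, a glycosyltransferase gene, stood highest over the other nuclei in replicate 1 (1064 against 122) and stood at 367 against 130 in the 7 nuclei. Also higher were BCL11A (257 against 47.9) and BCL11B (56.3 against 14.8), transcription factors, HOXB3 (119 against 28.4) and the potassium channel gene KCNN2 (152 against 32.1). CHAT, the enzyme that makes acetylcholine, stood at 25 against 5.25 CPM, GAD2 at 136 against 61.1 and SLC32A1, the vesicular GABA transporter, at 22.9 against 6.79. Of its 46 nuclei, 35 carried a cholinergic and 35 a GABAergic identity. No SLC5A7 UMI was found, at least 3.26-fold below the other nuclei, nor any of RORB, at least 3.95-fold below them. The marker PTPRT (39.6 against 249) and ONECUT1 (29.2 against 149) were lower.

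Nitrergic 5 had higher NXPH1, LUZP2, CNTNAP5 and some channel genes and lower GABA genes. Of 9264 genes, 132 (1.42%) were higher and 279 (3.01%) were lower. OBI1-AS1, a long noncoding RNA, led with 109 against 6.39 and 195 against 8.73 CPM, log2 differences of 3.32 and 3.87. NXPH1, a neurexin ligand, stood at 1468 against 129 and 880 against 113, LUZP2 at 2677 against 377 and 3608 against 588, and CNTNAP5, a neurexin-family protein (chromosome 2, 124025287 to 124915287), at 1661 against 175 and 1051 against 197. The netrin receptor UNC5C stood at 1838 against 136 and 677 against 168. BDNF, a neurotrophin, reached 101 against 12.2 and 55.8 against 8.15 CPM. Among voltage-gated channel genes, 4 of 30 were higher, among them KCND3 (378 against 31.1 and 211 against 57.0), CACNA1G and KCNIP1, and 1 was lower (KCNIP4). The transcription factors ZIC1 (168 against 21.1 and 75.7 against 13.4) and LHX5 (25.2 against 7.22 and 19.9 against 6.98) were higher. Among the lower genes, GABRG3 had no UMI in either replicate, at least 6.19-fold and 5.16-fold below the other nuclei. NOS1, also without a UMI, was at least 2.48-fold lower in replicate 2, while in replicate 1 the other nuclei (18.3 CPM) lay under the floor of this small group (25.2 CPM). GAD1 and GAD2 were lower as well. Of 21 guidance genes, 2 were higher (UNC5C and EPHA3) and 4 were lower (ROBO1, ROBO2, EPHA6 and EPHB1). Its replicate 1 rests on 18 nuclei, of which 1 gave 60.0% of the ZIC1 UMIs, 53.8% of those of OBI1-AS1 and 51.1% of those of KCND3, and 51 of the 132 genes were still higher without each gene's richest nucleus.

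**Figure D2:**
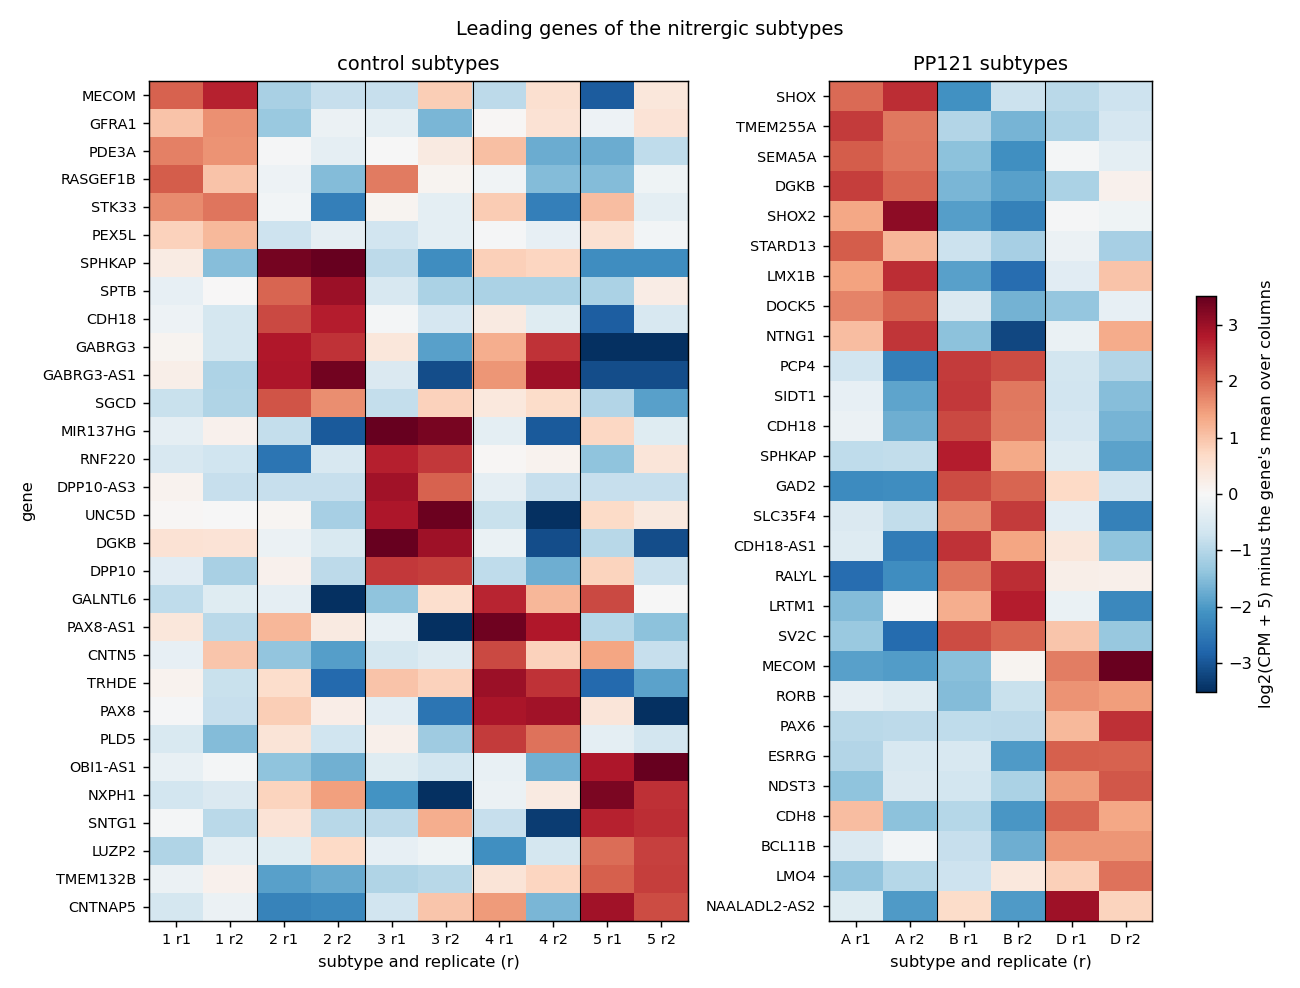
Colour gives log2(CPM + 5) minus the mean of the gene over the columns of its panel, for leading genes (rows) in each subtype and replicate (columns), with red for high and blue for low. Each block of genes is red in the columns of its own subtype, as MECOM is in Nitrergic 1 (152 and 236 CPM) and again in Nitrergic D (334 and 1089 CPM), while GABRG3 is deep blue in Nitrergic 5, where it had 0 UMIs.

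Nitrergic A, in the PP121 samples, had SHOX, a homeobox gene, as its first leading gene. SHOX stood at 96.5 CPM against 4.03 in replicate 1 and 148 against 9.02 in replicate 2, SHOX2 at 60.5 against 7.66 and 219 against 10.5, and LMX1B, a LIM homeodomain factor, at 78.5 against 8.87 and 184 against 33.1. Of 8783 genes, 93 (1.06%) were higher and 180 (2.05%) were lower. SEMA5A, a semaphorin, stood at 379 against 49.2 and 321 against 43.6, DGKB at 505 against 30.2 and 383 against 63.1, and TMEM255A at 80.1 against 5.24 and 51.0 against 3.01. Of 25 homeodomain and other neuronal factors past the filter, 2 were higher (LMX1B and SHOX2) and 4 were lower (LHX1, LHX9, LMO4 and PAX8), with a median log2 difference of -0.87 against 0.05 over all genes. Guidance genes past the filter numbered 21, of which ROBO2, NTNG1 and EFNA5 were higher and EPHA5 was lower. CHRNA7, a nicotinic receptor subunit, stood at 149 against 34.7 and 138 against 52.6. NOS1 was lower, at 9.81 against 36.3 and 10.2 against 104 CPM, as was GAD2 at 4.91 against 124 and 5.10 against 67.6. Nitrergic A was therefore among the subtypes of low NOS1, although 1 nucleus gave 58.1% of the NOS1 UMIs of Nitrergic D in replicate 2 and another gave 34.2% of those of Nitrergic B.

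Nitrergic B carried the GABA genes of the PP121 samples. GAD2 stood at 214 against 33.4 and 182 against 15.1 CPM and GAD1 at 181 against 20.0 and 86.0 against 22.6, and 126 of 127 and 19 of 19 nuclei had a GABAergic identity. Of 8594 genes, 97 (1.13%) were higher and 127 (1.48%) were lower. The leading gene was PCP4, a calmodulin regulator, at 138 against 8.72 and 121 against 4.52, log2 differences of 3.38 and 3.73. SIDT1 stood at 196 against 18.5 and 127 against 7.53, SPHKAP at 118 against 6.16 and 40.5 against 1.51, CDH18 at 3882 against 538 and 2743 against 324 and the synaptic vesicle gene SV2C at 153 against 30.8 and 127 against 4.52. LRTM1, higher as well, lies within CACNA2D3 on the other strand. SLC17A6 was low, with 0 against 111 and 20.2 against 116 CPM, and SLC5A7 was at 0 against 32.8 and 10.1 against 55.7. Of 10 enteric and autonomic factors past the filter, 4 were lower, among them PBX3 (178 against 565 and 213 against 535), EBF2 and EBF3, and none was higher. SHOX2 and LMX1B were also lower. LHX9 had no UMI in either replicate, at least 8.60-fold and 2.58-fold below the other nuclei.

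Nitrergic D had the highest share of nuclei with a NOS1 UMI, with an interval that overlapped that of Nitrergic 1, and few genes of its own. MECOM stood at 334 against 36.5 and 1089 against 56.1 CPM, log2 differences of 3.03 and 4.16. Of 8597 genes, 54 (0.628%) were higher and 47 (0.547%) were lower. Several of the higher genes encode transcriptional regulators: RORB at 98.1 against 14.7 and 89.4 against 14.5, PAX6 at 36.6 against 5.79 and 108 against 4.16, LMO4 at 86.3 against 24.9 and 187 against 45.7, and BCL11B at 42.5 against 10.2 and 42.1 against 4.16. The ephrin receptor EPHA5 (297 against 55.7 and 150 against 49.9) was higher too. NOS1 itself stood at 60.3 against 20.0 in replicate 1 and at 81.5 against 83.1 in replicate 2, so Nitrergic D stood above the other nuclei in replicate 1 alone, where 1 nucleus gave 49.0% of its NOS1 UMIs. CDH18 (520 against 2247 and 250 against 1376), SIDT1 and NFIA were lower. Without each gene's richest nucleus, 24 of the 54 genes were still higher, and the leading genes ESRRG and NAALADL2-AS2 were not.

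Transmitter genes differed between subtypes in both annotations, at low counts. GAD2 ranged from 82.0 to 214 CPM over the replicates of Nitrergic 2 and Nitrergic B and from 0 to 16.2 over those of Nitrergic 3, Nitrergic 5 and Nitrergic A, with no overlap, and Nitrergic 4 had 136. SLC17A6 stood at 78.5 to 163 CPM in Nitrergic 3, Nitrergic 5 and Nitrergic A and at 0 to 20.2 in Nitrergic 2 and Nitrergic B. By the 2-fold rule SLC17A6 was higher in Nitrergic 3 alone, and lower in Nitrergic 2, Nitrergic 4 and Nitrergic B. These ranges leave out Nitrergic 1 and Nitrergic D, where GAD2 and SLC17A6 were neither higher nor lower. A glutamatergic identity was annotated for 33.0% and 62.2% of the nuclei of Nitrergic D, and for 21.7% and 21.7% of those of Nitrergic A. SLC5A7 was at 67.0 and 152 CPM in Nitrergic 3 and at 67.1 and 35.7 in Nitrergic A, yet CHAT stood at 2.31 and 10.5 and at 3.27 and 5.10 in the same subtypes, and the vesicular acetylcholine transporter SLC18A3 had 2 UMIs in all nitrergic nuclei. Of the 13 listed serotonin and catecholamine genes only 1 or 2 passed the filter in a subtype, and these were neither higher nor lower by the 2-fold rule. A serotonergic identity was nevertheless annotated for 97 of 114 and 11 of 13 nuclei of Nitrergic 2, in which the serotonin synthesis gene TPH2 stood at 6.58 and 0 CPM. Over all nitrergic nuclei UMIs of TPH2, TPH1 and SLC6A4 were found in 3.1%, 2.30% and 4.61%. In other enteric neurons the shares were 1.60%, 2.33% and 4.60%. In Nitrergic 3, 46 of 60 and 7 of 20 nuclei had no identity besides the nitrergic.

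**Figure D3:**
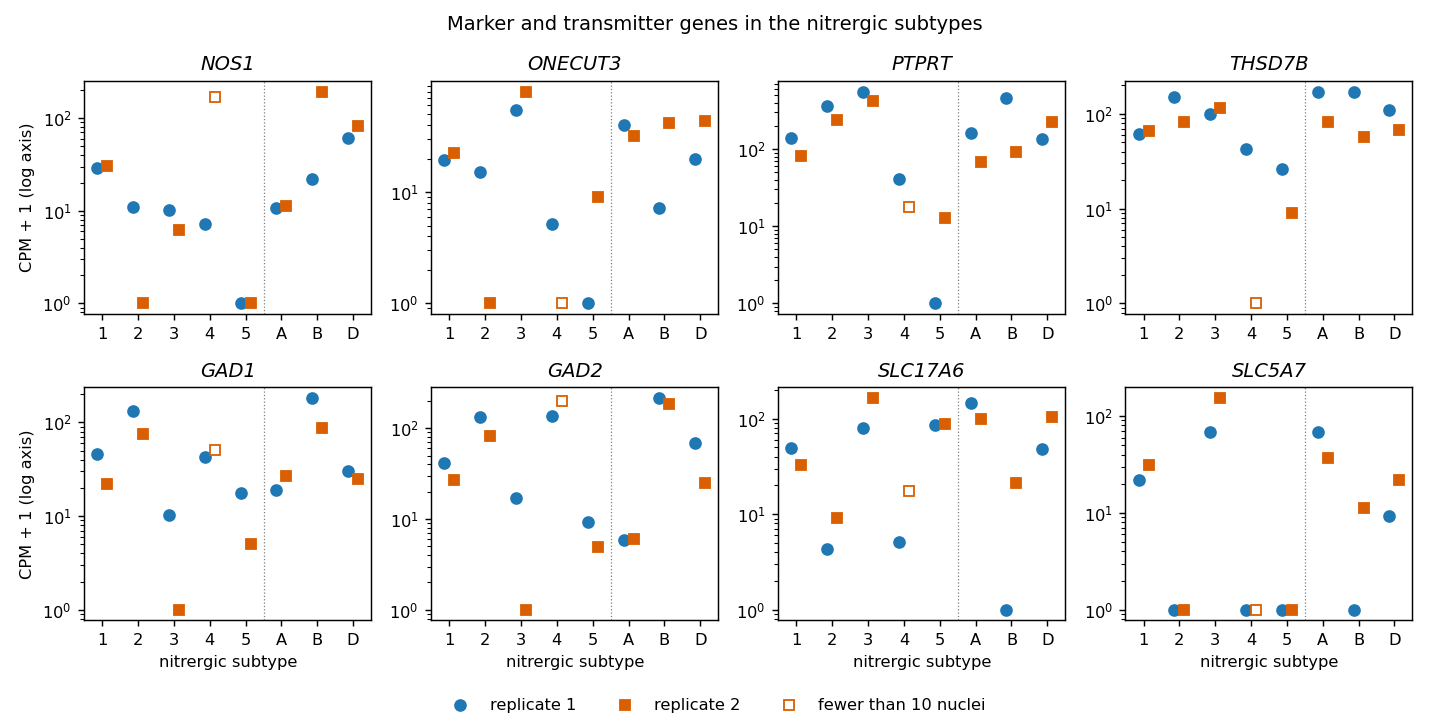
Levels of marker and transmitter genes (CPM + 1, log axis) in every described subtype, with circles for replicate 1, squares for replicate 2 and an open square for the 7 nuclei of Nitrergic 4 in replicate 2. By the 2-fold rule GAD1 and GAD2 were higher in Nitrergic 2 and Nitrergic B, GAD2 also in Nitrergic 4, and SLC17A6 in Nitrergic 3 alone. NOS1 was 0 in both replicates of Nitrergic 5.

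The leading genes of each control subtype, up to 50, were followed in the PP121 samples, whose values did not choose them, and the reverse. The authors drew the PP121 names from control and PP121 nuclei clustered together, so the annotations are not wholly independent. Nitrergic 2 recurred in Nitrergic B: 26 of its 50 leading genes were at least 2-fold higher there in each PP121 sample, with a median log2 difference of 1.54, where 1.13% of all genes were. In the reverse direction 36 of the 50 leading genes of Nitrergic B were higher in Nitrergic 2 (median 1.80, background 1.48%). Both subtypes counted 50 genes in common as higher, which is 37.3% of those of Nitrergic 2 and 51.5% of those of Nitrergic B. SPHKAP, CDH18, PCP4, RALYL, GABRG3, RARB and GAD1 were among them, with SPHKAP at log2 differences of 3.14, 5.15, 3.46 and 2.81 over the 4 samples.

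Nitrergic 3 recurred in Nitrergic A. Here 20 of 50 leading genes were higher in each PP121 sample (median 1.12, background 1.06%), and 29 of the 50 leading genes of Nitrergic A were higher in Nitrergic 3 (median 1.76, background 1.82%). Genes in common numbered 37, or 22.4% and 39.8% of the lists. The smallest of the 4 differences was 2.65 for SEMA5A, 2.51 for DGKB, 2.39 for TMEM255A and 2.02 for SHOX2, and LMX1B, SHOX and NTNG1 were also shared. The peptides of Nitrergic 3 were not carried over to the same degree, since ADCYAP1 stood at 16.4 and 0 CPM and CARTPT at 3.27 and 0 CPM in Nitrergic A, though TAC1 stood at 21.3 and 20.4 CPM. The paper, by module scores, describes Nitrergic C rather than Nitrergic A as most similar to Nitrergic 3. In the 22 nuclei of Nitrergic C, 5 of the 50 leading genes of Nitrergic 3 were higher in each sample (median -0.695, background 3.06%).

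Nitrergic 1 and Nitrergic D resembled each other less. Of the 21 leading genes of Nitrergic 1, 3 were higher in Nitrergic D (median 0.35, background 0.628%), and 4 of the 42 leading genes of Nitrergic D were higher in Nitrergic 1 (median 0.40, background 0.302%). MECOM, RORB and RASGEF1B were the named genes in common. Across the 8079, 8218 and 8076 genes past the filters on both sides, mean log2 differences correlated at r = 0.433 for Nitrergic 2 and Nitrergic B, 0.388 for Nitrergic 3 and Nitrergic A and 0.194 for Nitrergic 1 and Nitrergic D. Nitrergic 1 and Nitrergic A correlated at r = 0.108. By rank, Nitrergic 1 was no closer to Nitrergic D than to Nitrergic A (Spearman's rho 0.0970 for each), and Nitrergic 5 and Nitrergic D had 0.119. These are descriptions across genes, which are not independent and share the depth of their libraries. Nitrergic 4 had at most 4 of its 50 leading genes higher in Nitrergic A, Nitrergic B or Nitrergic D and 11 in the small Nitrergic E. In the reverse direction, 11 of the 50 leading genes of Nitrergic B and 7 of the 42 of Nitrergic D were higher in the single sample of Nitrergic 4 (background 2.53%). It counted 14 higher genes in common with Nitrergic B and 7 with Nitrergic D, and its profile correlated with that of Nitrergic D at r = 0.174 (Spearman's rho 0.171, against 0.0970 for Nitrergic 1 and Nitrergic D).

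Nitrergic 5 had its counterpart in a subtype under 50 nuclei. In Nitrergic E, 41 nuclei of PP121 replicate 1, 40 of the 50 leading genes of Nitrergic 5 were at least 2-fold higher than in the other nitrergic nuclei (median 1.72), where 3.23% of all genes were in this sample. CNTNAP5 stood at 3145 CPM in Nitrergic E and LUZP2 at 3722. RNF220, the second leading gene of Nitrergic 3, stood at 304 CPM there. NOS1 in Nitrergic E amounted to 15 UMIs, all in 1 nucleus. With a single sample, this has no replicate check.

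**Figure D4:**
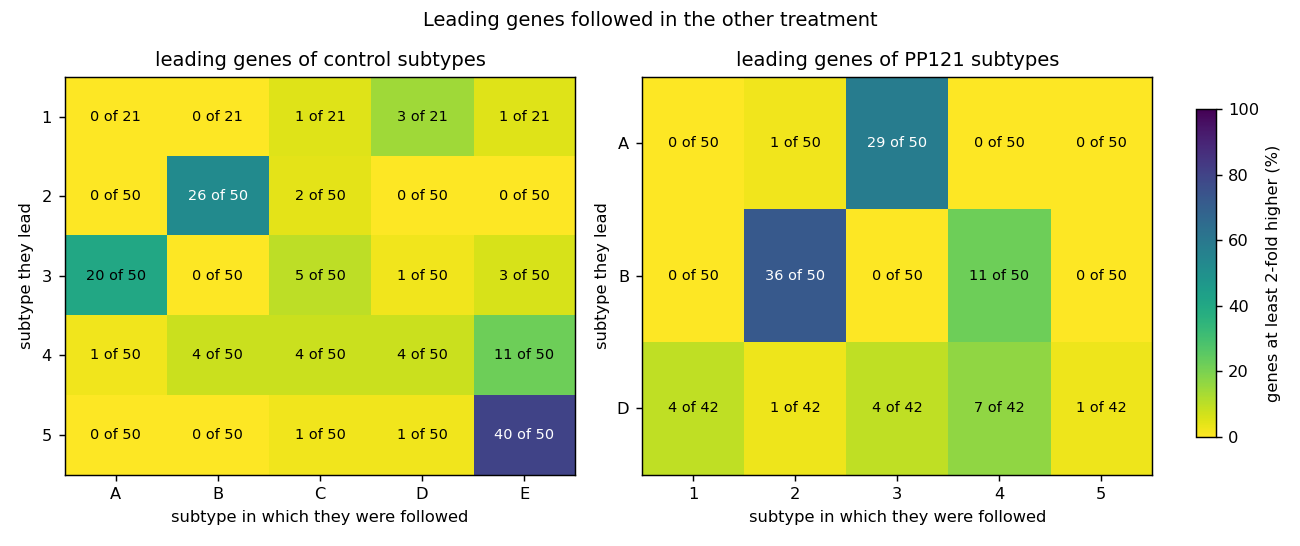
Share of the leading genes of a subtype (rows) that were at least 2-fold higher in a subtype of the other treatment (columns), in percent. The largest shares were 80% for Nitrergic 5 in Nitrergic E, 72% and 52% between Nitrergic B and Nitrergic 2, and 58% and 40% between Nitrergic A and Nitrergic 3.

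Most subtypes lay within 1 neuron cluster of the annotation. The cluster named EN 5 held 99.2% of Nitrergic 2, EN 8 held 91.3% of Nitrergic 3, EN 4 held 96.0% of Nitrergic 5, EN E held 99.3% of Nitrergic B and EN H held 83.0% of Nitrergic A. Nitrergic 1 was spread over 8 clusters, with 34.4% in EN 1 and 28.2% in EN 4, and Nitrergic D over 9, with 58.2% in EN A. Nitrergic 4 was spread over 7, with 62.3% in EN 3. The leading genes were then read in the nuclei of the same cluster that were not nitrergic, compared with the remaining neurons that were not nitrergic, a comparison chosen after seeing the data. In EN 5, 48 of the 50 leading genes of Nitrergic 2 were at least 2-fold higher in each sample, where 1.79% of all genes were. The counts were 32 of 50 for Nitrergic B in EN E (1.53%), 27 for Nitrergic A in EN H (1.52%) and 23 for Nitrergic 3 in EN 8 (1.74%). The count was 3 for Nitrergic 5 in EN 4 (1.40%). The leading genes were also read in the subtype against the nuclei of its own cluster that were not nitrergic. In replicates 1 and 2, 45 and 43 of 50 were at least 2-fold higher in Nitrergic 5, 28 and 36 in Nitrergic 3, 15 and 21 in Nitrergic A, 15 and 18 in Nitrergic B and 7 and 16 in Nitrergic 2. These last counts reuse the nuclei that chose the genes, and no share over all genes was taken beside them, so nothing is read from them. For Nitrergic 5 they rest on 18 and 32 nuclei. In the nuclei that were not nitrergic, 48 of 50 leading genes of Nitrergic 2 were thus higher in its cluster. For Nitrergic 5 it was 3 of 50, and the others lay between.

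PP121 was compared with control in the summed counts of all nitrergic nuclei, by the quasi-likelihood test of edgeR, with Benjamini-Hochberg adjustment over 15239 genes. The test called 0 genes, with a smallest adjusted p of 0.0966 and 2131 genes at an unadjusted p under 0.05. With the replicate as a block, which pairs the samples by their dated day and leaves 1 residual degree of freedom, 1034 genes (6.79%) were higher and 560 (3.67%) were lower under PP121. DESeq2 without the block called 128 genes. Because the makeup of subtypes differed between samples, a larger share of a subtype and a higher level per nucleus cannot be told apart in these sums, and PP121 replicate 2 rests on 91 nuclei.

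Of the leading genes of all subtypes, 0 were called without the block. Those of Nitrergic A, Nitrergic B and Nitrergic D were chosen in the PP121 samples and those of the control subtypes in the control samples, so the choice bears on these directions and nothing is read from the counts with the block. Counted by calls with the block, where 6.79% of all genes rose and 3.67% fell, 30 of 50 leading genes of Nitrergic 2 rose and 0 fell. For Nitrergic A 28 of 50 rose and 2 fell, for Nitrergic B 27 of 50 rose and 0 fell, and for Nitrergic 3 22 of 50 rose and 2 fell. Nitrergic D had 20 of 42 that rose, Nitrergic 5 15 of 49, Nitrergic 4 12 of 50 with 1 that fell, and Nitrergic 1 2 of 21 with 5 that fell. SEMA5A stood at 44.4 and 36.6 CPM in control and 115 and 107 in PP121, a log2 change of 1.56 (SE 0.18), and the groups did not overlap (edgeR adjusted p = 0.0966, and 6.45e-16 with the block). SNTG1 stood at 241 and 294 CPM in control and 495 and 499 in PP121, a log2 change of 1.01 (SE 0.16, edgeR adjusted p = 0.0983, and 2.76e-13 with the block). NOS1 stood at 17.8 and 25.9 CPM in control and 31.1 and 82.4 in PP121, a log2 change of 1.40 (SE 0.45, edgeR adjusted p = 0.252, and 1.78e-06 with the block). The change was 0.64 without PP121 replicate 2 and 2.11 without PP121 replicate 1, single nuclei gave much of the NOS1 of PP121 replicate 2 as described above, and NOS1 also entered the definition of the nuclei, so its change is a description. MEF2C, a transcription factor, stood at 140 and 98.0 CPM in control and at 72.1 and 22.1 in PP121 (log2 change -1.07, SE 0.37, edgeR adjusted p = 0.274, and 1.92e-09 with the block), and the change was -0.64 without PP121 replicate 2 and -2.29 without PP121 replicate 1.

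The matched subtypes were also compared directly, a test added after seeing the data, in which treatment and the way the subtypes were drawn cannot be told apart. Between Nitrergic B and Nitrergic 2, 1 of 8658 genes (0.0116%) was called without the block and 30 (24 higher, 0.277%, and 6 lower, 0.0693%) with it. That gene was CNTNAP5, at 38.4 and 41.0 CPM in Nitrergic 2 and 265 and 547 in Nitrergic B, a log2 difference of 3.40 (SE 0.43, edgeR adjusted p = 0.0059, and 1.57e-15 with the block). LUZP2 stood at 509 and 1115 CPM in Nitrergic 2 and 1830 and 2045 in Nitrergic B and was called with the block and not without it (edgeR adjusted p = 0.828, and 2.84e-05 with it). GAD2 stood at 131 and 82.0 CPM in Nitrergic 2 and 214 and 182 in Nitrergic B, a log2 difference of 0.87 (SE 0.32) that passed neither fit (edgeR adjusted p = 0.999, and 0.487 with the block). Between Nitrergic A and Nitrergic 3, 1 of 6524 genes (0.0153%) was called without the block and 11 with it (2 higher, 0.0307%, and 9 lower, 0.138%). RNF220 stood at 527 and 447 CPM in Nitrergic 3 and at 37.6 and 25.5 in Nitrergic A, a log2 difference of -3.85 (SE 0.32, edgeR adjusted p = 0.00546, and 0.000288 with the block). PTPRT (554 and 420 against 162 and 66.3 CPM) was lower in Nitrergic A with the block and not without it (edgeR adjusted p = 0.332, and 0.0283 with the block), and DESeq2 with the block did not call it (adjusted p = 0.0555).

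**Figure D5:**
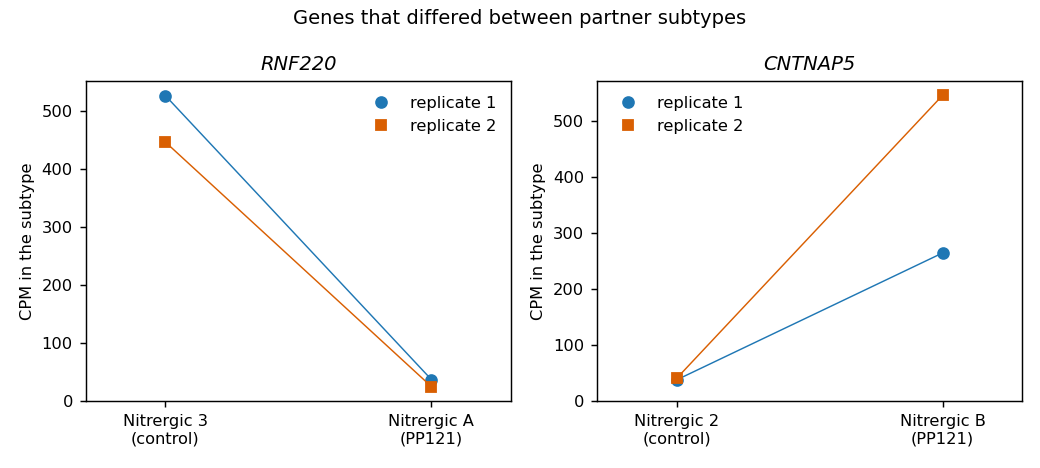
CPM in the subtype (linear axis from 0) of RNF220 and CNTNAP5 in the matched subtypes, with a line joining samples of the same replicate number. CNTNAP5 lies at 38.4 and 41.0 CPM in Nitrergic 2 and at 265 and 547 in Nitrergic B, and RNF220 at 527 and 447 in Nitrergic 3 and at 37.6 and 25.5 in Nitrergic A.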

How the data were processed

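Nuclei of 4 samples were profiled by droplet single-nucleus RNA sequencing. The deposited matrices hold UMI counts per gene and nucleus, which the authors made against GRCh38. Cell Ranger and Seurat 4.0.4 stand in the submitters' processing notes, while the methods of the study name kallisto and bustools, and the treatment of introns and strand is not given in the sources used here. The deposited annotation also gives a percent of mitochondrial counts per nucleus, after the authors' filters, together with cell class, transmitter identities and subtypes. The authors called a nucleus nitrergic from imputed NOS1 and a score over NO genes, and clustered control nitrergic nuclei alone for the control names. Group labels came from the sample titles, since a column of the annotation disagreed with them for the control samples.

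UMI counts were summed per subtype and sample and divided by the total (CPM). A gene entered at 20 CPM or more, and 5 CPM were added before log2 ratios. Up to 50 genes higher in each sample led a subtype, of which up to 10 with a gene symbol of their own were named, with up to 3 lower genes, the 4 marker genes and members of 25 gene lists. A few genes that the rule names are not reported here. Members and lists were chosen with earlier results of these data known. Of 85 named genes looked up, 83 had a position in GENCODE. PP121 was tested against control with edgeR 4.0.16 (R 4.3.3, TMM, quasi-likelihood, two-sided), and DESeq2 1.42.0 was an alternative, with adjusted p under 0.05 as threshold. Each replicate pools ganglioids of a separate differentiation. The replicate number pairs samples through the dated day, and same-numbered samples deviated together (r = 0.332 over 6913 genes). The main fit has no block, and blocked values stand beside it. The code was tested on simulated data.

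Scrublet (scanpy 1.11.5, Python 3.11.15) marked 5, 2, 2 and 1 nuclei, too few for its threshold to have worked, so the nuclei with the highest 6% of scores were left out as an alternative. Other alternatives were 1 CPM added, no filter, means over nuclei, 25 leading genes and each sample left out. Nuclei without annotation were not used, and 0 columns of per-sample values were left out.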

Additional observations from a re-analysis of the deposited data

Results flagged for a closer look

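RNF220, which encodes a ubiquitin ligase, went in opposite directions in the matched subtypes Nitrergic 3 and Nitrergic A. Against the other nitrergic nuclei of its sample, the log2 difference was 3.52 and 2.92 in the control replicates and -0.63 and -2.74 in the PP121 replicates, which makes the mean in PP121 minus that in control -4.90. It drew attention because every sample of either treatment moved the same way and the treatments moved opposite ways. That interaction was not tested. The level in the subtype itself was tested, at 527 and 447 CPM in Nitrergic 3 against 37.6 and 25.5 CPM in Nitrergic A (log2 difference -3.85, edgeR adjusted p = 0.00546). In PP121 replicate 1 RNF220 stood at 304 CPM in Nitrergic E. Replicate 2 held no nuclei of Nitrergic E, and there too the nuclei outside Nitrergic A had more RNF220 (log2 difference -2.74). Its level outside Nitrergic A was thus not confined to Nitrergic E. The level in Nitrergic C is not given here. The match of Nitrergic 3 with Nitrergic A rests on leading genes, whereas the paper pairs Nitrergic 3 with Nitrergic C. Treatment and the drawing of the subtypes cannot be told apart.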

How the results depend on the processing

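Counts of genes higher or lower in a subtype depended most on asking for both replicates. In 1 replicate alone they ranged from 293 to 579 in Nitrergic 1 (109 in both), 485 to 2425 in Nitrergic 2 (289), 754 to 1777 in Nitrergic 3 (334), 1208 to 2326 in Nitrergic 5 (411), 649 to 1818 in Nitrergic A (273), 476 to 1791 in Nitrergic B (224) and 312 to 1185 in Nitrergic D (101). Without the 20 CPM filter they were 448 in Nitrergic 2, 601 in Nitrergic 3, 1193 in Nitrergic 4 (546), 921 in Nitrergic 5 and 153 in Nitrergic D. Adding 1 CPM gave 175 in Nitrergic 1, of which 36.0% were higher, against 24.8%. Leading genes that recurred ranged, with 1 replicate left out, from 46.0 to 84.0% for Nitrergic 2 in Nitrergic B (52.0), 44.0 to 68.0% for Nitrergic 3 in Nitrergic A (40), 16.0 to 24.0% for Nitrergic 1 in Nitrergic D (14.3) and 16.0 to 20.0% in the reverse direction (9.52).

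For PP121 against control, edgeR called 0 genes, 1594 with the replicate block, 752 without a filter and 751 with the block and the highest doublet scores left out. DESeq2 called 128, or 160 with the block. Leaving out a sample gave 66 to 356 calls, where the lone sample of a group is assumed to vary like the other. Nitrergic B against Nitrergic 2 had 1 call, 30 with the replicate block, 28 without a filter, 2 with the block and the highest scores left out, 2 by DESeq2 with the block and 6 to 116 without a sample (116 without PP121 replicate 1). Nitrergic A against Nitrergic 3 had 1 call, 11 with the replicate block, 7 by DESeq2, 1 by DESeq2 with the block, 56 without a filter, 9 with the block and the highest scores left out and 4 to 61 without a sample (61 without control replicate 2). The cause of these shifts was not tested. In these fits of matched subtypes, CNTNAP5 (Nitrergic B against Nitrergic 2) and RNF220 (Nitrergic A against Nitrergic 3) kept their direction and call in every setting. The edgeR fits without the nuclei that Scrublet marked were not run, since only 1 nitrergic nucleus was marked. Small subtypes set the depth limit: 13 nuclei of Nitrergic 2 in replicate 2 put the floor of 3 UMIs at 24.6 CPM.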
